A study of Mus musculus with 6 samples.

Results

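The haemoglobin chains were examined in 6 day 12 mouse embryos of 3 Stat3 genotypes, through every array probe whose accession maps to 1 of 9 globin genes. These were the embryonic genes Hba-x, Hbb-y and Hbb-bh1, the adult genes Hba-a1, Hba-a2, Hbb-bt, Hbb-bs and Hbb-b2, and Hbb-bh2, a further gene of the beta cluster. These 9 of the 20659 genes named on the array held 11 of its 39429 probes, and 10 of these 11 passed the filter on dim probes, which kept 29912 probes. Total RNA came from 2 wild-type embryos, 2 embryos heterozygous for the allele written STAT3-K177K180R and 2 embryos homozygous for it. All were 12 days old, and the labels place the genotypes in 1 womb. Each embryo was hybridised to its own 1-colour Agilent array after amplification and Cy3 labelling. The labels do not name the strain, and 1 of their fields describes wild type as mutant, and they name tumour tissue in the extraction protocol; the titles were followed here.

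Haemoglobin is a tetramer of alpha-type and beta-type globin chains, each of which holds a heme group. In the mouse, primitive red cells that arise in the yolk sac carry embryonic chains (zeta from Hba-x, epsilon-y from Hbb-y and beta-h1 from Hbb-bh1). Definitive red cells made in the fetal liver carry adult chains, alpha from Hba-a1 and Hba-a2 and beta from the adult genes of the beta cluster. At midgestation both populations are in the blood, and primitive red cells also make adult alpha chains. The alpha and beta clusters lie on chromosomes 11 and 7, with the genes of each cluster arranged from embryonic to adult. In the RefSeq gene order of GRCm38.p6 the alpha cluster reads Hba-x, Hba-a1, Hba-a2 and the beta cluster reads Hbb-y, Hbb-bh1, Hbb-bh2, Hbb-bs, Hbb-bt. The adult beta pair differs between mouse strains: Hbb-bs and Hbb-bt form 1 haplotype, and Hbb-b2 belongs to another.

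The adult genes of a cluster are near copies of each other. The 120 bases before the start site of 6 members are shown to let the control regions of these copies be compared, taken from the RefSeq promoter table (GRCm38.p6), which held 7 of the 9 genes. Capitals mark CACCC and CCAAT boxes and the TATA-type letters TATAA or ATAAA on the strand of the gene.
Hba-x, chr11:32276480-32276599, plus strand: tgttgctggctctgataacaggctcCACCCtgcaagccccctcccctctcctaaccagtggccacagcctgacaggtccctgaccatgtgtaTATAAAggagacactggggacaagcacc
Hbb-y, chr7:103853208-103853327, minus strand: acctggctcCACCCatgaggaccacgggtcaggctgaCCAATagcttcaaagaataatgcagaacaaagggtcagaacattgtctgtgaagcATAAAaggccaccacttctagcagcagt
Hba-a1, chr11:32283552-32283671, plus strand: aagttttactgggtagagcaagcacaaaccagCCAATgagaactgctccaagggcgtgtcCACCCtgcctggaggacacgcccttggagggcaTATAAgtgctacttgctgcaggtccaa
Hba-a2, chr11:32296372-32296491, plus strand: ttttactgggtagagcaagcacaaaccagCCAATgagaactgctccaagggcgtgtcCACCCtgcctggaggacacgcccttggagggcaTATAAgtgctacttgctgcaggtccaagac
Hbb-bt, chr7:103813924-103814043, minus strand: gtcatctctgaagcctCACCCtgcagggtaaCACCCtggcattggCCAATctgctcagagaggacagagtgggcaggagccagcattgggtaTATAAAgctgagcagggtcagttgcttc
Hbb-bs, chr7:103827929-103828048, minus strand: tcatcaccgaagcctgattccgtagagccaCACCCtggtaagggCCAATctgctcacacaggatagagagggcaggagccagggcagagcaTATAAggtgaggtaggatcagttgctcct

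The upstream sequences of Hba-a1 and Hba-a2 were identical over all 247 bases compared, shifted only by where the table sets the start. Those of Hbb-bt and Hbb-bs matched at 51.0% of 249 bases compared without gaps, with a longest shared run of 14 bases. Without gaps, an inserted or lost base puts the rest out of step, so this share can understate their likeness. Over 250 bases before the start, searched on both strands, CACCC occurred in 6 of the 7 globin promoters (against 52.0% of all 32851 promoters in the table), CCAAT in 5 (33.9%), TATAA in 5 (22.8%), ATAAA in 4 (37.3%, with overlap where the letters read TATAAA) and GATAA in all 7 (22.6%). The pattern TTCNNNGAA, the palindrome that STAT proteins bind, occurred in the promoter of Hbb-y alone among the 7, 75 bases before the start, and in 7.02% of all promoters. These matches describe letters, and binding was not measured. Probe sequences were not used here, so how far a probe for one gene of a near-identical pair also reads the other is not known, and values of Hba-a1 and Hba-a2, and of Hbb-bt, Hbb-bs and Hbb-b2, are uncertain in that respect.

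Levels are given as log2 of the processed signal relative to the 75th percentile of the same array, so that a step of 1 is a change of 2-fold. They compare embryos for 1 probe, and levels of different probes are not set against each other. Between 70.7% and 77.3% of probes were well above background per array, and no spot was saturated. The homozygous arrays had a 75th percentile of 784 and 856 in processed signal against 1035 to 1258 for the others. Both homozygous arrays were on a slide of their own, with signals of negative control spots of 37.0 and 41.9 against 18.7 to 19.7 on the slide that held the wild-type and heterozygous arrays, so an effect of the slide and one of the homozygous genotype cannot be told apart in any comparison below. The design text gives 2 independent experiments per genotype without saying what was separate, so p-values measure only the spread between these arrays. Stat3 itself was at 0.82 and 0.82 in wild-type, 1.07 and 0.83 in heterozygous and 1.39 and 1.1 in homozygous embryos. Its homozygous difference of 0.43 ± 0.16 (SE) did not pass the test (limma adjusted p = 0.0920). Another Stat3 probe was at -4.42 and -4.47 in wild-type, -4.35 and -4.29 in heterozygous and -4.81 and -3.52 in homozygous embryos. Its homozygous difference was 0.28 ± 0.38 (limma adjusted p = 0.606). Whether these probes cover the altered residues was not examined.

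In homozygous embryos the adult beta chain gene Hbb-bt and the adult alpha chain gene Hba-a2 were higher than in wild-type embryos, by 2.46-fold and 1.46-fold. The other adult genes and all embryonic genes did not pass the test, with differences from -0.48 to 0.38 on the log2 scale. Of the 10 globin probes, 2 rose and none fell, against 27.8% of all 29911 tested probes that passed (13.2% higher, 14.5% lower). Both were among the 5 adult probes, where the 2 genotypes did not overlap for any probe. That separation is common in this comparison: 68.9% of all probes showed it. The split of all calls moved with the values used: 47.7% were higher in the main analysis, 67.6% when normexp-corrected median spot signals replaced the processed signals, and 10.9% without scaling between arrays.

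Hbb-bt, an adult beta-globin gene, gave the clearest difference. Its level was 5.62 and 5.12 in wild-type, 5.05 and 5.47 in heterozygous and 6.66 and 6.67 in homozygous embryos. Both homozygous embryos were above the 4 others, which overlapped each other. The homozygous difference was 1.30 ± 0.22 (SE, n = 2 per genotype; limma adjusted p = 0.00877) against wild type. It lay between 0.94 and 1.27 under the 5 other scalings and passed the test under each. The direction was the same in the signals as scanned: processed signals were 86664 and 80168 in the homozygous embryos against 37047 to 55621 in the other 4. Without wild-type replicate 2, the lower of that pair, the difference was 1.05 and missed the threshold (adjusted p = 0.0619); without wild-type replicate 1 it was 1.55 (adjusted p = 0.0245).

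Hba-a2, one of the duplicated adult alpha-globin genes, was at 6.34 and 6.19 in wild-type, 6.15 and 6.05 in heterozygous and 6.79 and 6.82 in homozygous embryos. Again both homozygous embryos were highest. The difference from wild type was 0.54 ± 0.13 (SE, n = 2 per genotype; limma adjusted p = 0.0270). It was less firm than that of Hbb-bt: it stayed above 0 but was 0.15 with normexp and quantile normalization (called quantile normalization from here on; adjusted p = 0.184), 0.22 in the authors' deposited log2 values (adjusted p = 0.188) and 0.19 without scaling (adjusted p = 0.352). It also missed the threshold without wild-type replicate 1 (0.62, adjusted p = 0.108), without wild-type replicate 2 (0.46, adjusted p = 0.195), without either heterozygous replicate (0.54, adjusted p = 0.0515 in both) and with no filter on dim probes (adjusted p = 0.0512).

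Hba-a1, the other adult alpha-globin gene, was at 6.55 and 6.39 in wild-type, 6.21 and 6.31 in heterozygous and 6.65 and 6.78 in homozygous embryos. Its homozygous difference of 0.24 ± 0.13 did not pass (limma adjusted p = 0.214), and its sign turned under quantile normalization, in the authors' values and without scaling (-0.073, -0.10 and -0.11). Hba-a1 and Hba-a2 were among the 26 brightest probes on every array, at 68.3% to 97.7% of the highest signal of the array. The ratio of Hba-a2 to Hba-a1 within an array does not change when an array is scaled by 1 factor: on the log2 scale it was -0.20 and -0.21 in wild-type, -0.06 and -0.26 in heterozygous and 0.14 and 0.05 in homozygous embryos. It was higher in the homozygous than in the wild-type embryos by 0.30 ± 0.09 (SE from the spread within genotypes), and by 0.18 ± 0.08 with normexp. This ratio carries no test, and how far each probe also reads the other gene is not known.

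The other 2 adult beta probes did not pass and lay on the other side of 0. Hbb-b2, an adult beta gene of the other haplotype, was at 5.34 and 5.16 in wild-type, 5.13 and 5.21 in heterozygous and 5.07 and 4.63 in homozygous embryos. The homozygous difference was -0.40 ± 0.18 (limma adjusted p = 0.142). It passed under 3 of the 5 other scalings, at -0.76 (adjusted p = 0.0325) without scaling, -0.47 (adjusted p = 0.0464) with normexp and -0.45 (adjusted p = 0.0499) with quantile normalization, and without homozygous replicate 1 (-0.62, adjusted p = 0.0233). Hbb-bs, the partner of Hbb-bt in its haplotype, was at 1.43 and 1.36 in wild-type, 0.90 and 1.54 in heterozygous and 0.97 and 0.86 in homozygous embryos, with a homozygous difference of -0.48 ± 0.22 (limma adjusted p = 0.145) that passed only without scaling (-0.84, adjusted p = 0.0381). Heterozygous replicate 1 lay with the homozygous pair and heterozygous replicate 2 above every other embryo.

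**Figure D1:**
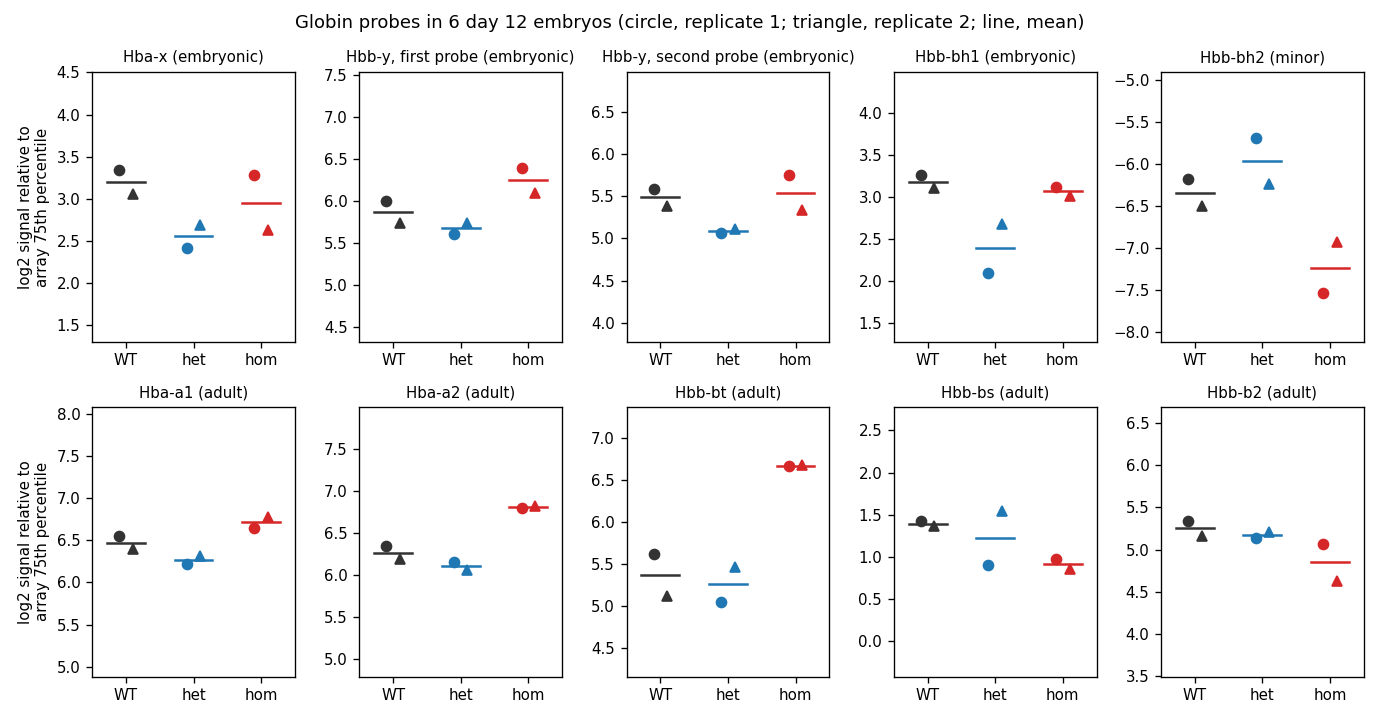
Log2 signal relative to the 75th percentile of the array (vertical axis, each panel spanning the same range) for the 10 globin probes kept, by genotype, with 1 symbol per embryo and a line at the mean of 2. Hbb-bt sits at 6.66 and 6.67 in both homozygous embryos and at 5.62 or below in the others, while the embryonic genes overlap or nearly overlap between homozygous and wild-type embryos.

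Ratios between the adult beta genes were taken inside each array. The labels do not give the beta haplotype of each embryo, so a difference of haplotype between embryos and a difference of expression cannot be told apart in these probes. The log2 ratio of Hbb-bt to Hbb-bs was 4.19 and 3.76 in wild-type, 4.15 and 3.92 in heterozygous and 5.70 and 5.82 in homozygous embryos, a homozygous difference of 1.78 ± 0.21 from wild type. That of Hbb-bt to Hbb-b2 was 0.28 and -0.04, then -0.08 and 0.25, then 1.59 and 2.05, a difference of 1.70 ± 0.27. The ratio of Hbb-bs to Hbb-b2 differed by -0.08 ± 0.27. In both ratios with Hbb-bt the 2 homozygous embryos stood above the other 4. These pairs were chosen after the values were seen, only differences between embryos can be read from them, and with 2 embryos against 2 an exact permutation test cannot go below p = 0.333, so they carry no test.

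The embryonic genes showed no difference that passed in limma between homozygous and wild-type embryos (0 of 4 probes, and 0 at an unadjusted p under 0.05). Hba-x, which encodes the zeta chain, was at 3.34 and 3.06 in wild-type, 2.42 and 2.68 in heterozygous and 3.28 and 2.63 in homozygous embryos. Its homozygous difference of -0.24 ± 0.24 (limma adjusted p = 0.484) was smaller than the gap between the 2 homozygous embryos, and was 0.09 without homozygous replicate 2 and -0.57 without homozygous replicate 1. Hbb-bh1, the beta-h1 chain, was at 3.26 and 3.11 in wild-type, 2.10 and 2.68 in heterozygous and 3.12 and 3.01 in homozygous embryos, a difference of -0.12 ± 0.21 (adjusted p = 0.699). Both heterozygous embryos were below the other 4.

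Hbb-y, the epsilon-y chain, had 2 probes. The first (A_55_P1967478) was at 6.0 and 5.74 in wild-type, 5.61 and 5.74 in heterozygous and 6.39 and 6.10 in homozygous embryos, a homozygous difference of 0.38 ± 0.17 (limma adjusted p = 0.134). The second (A_55_P1967481) was at 5.59 and 5.39, 5.07 and 5.11, and 5.75 and 5.34, a difference of 0.06 ± 0.18 (adjusted p = 0.828). The probes thus gave the same sign and unlike sizes, and under quantile normalization, in the authors' values and without scaling the second was at -0.011, -0.094 and -0.30. Across genotypes the 2 probes shared their order, lowest in heterozygous and highest in homozygous embryos.

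Hbb-bh2, the minor beta-cluster gene, had 2 dim probes. One (A_55_P2166874) was not well above background on any array and was not tested. The other (A_55_P2048550) was well above background on all 4 wild-type and heterozygous arrays and on no homozygous array, with levels of -6.18 and -6.50 in wild-type, -5.69 and -6.23 in heterozygous and -7.53 and -6.93 in homozygous embryos. Its homozygous values are therefore bounds. Against wild type the measured difference was -0.89 ± 0.27 (limma adjusted p = 0.0539) and gave no bound above 1-fold. It was called under 3 of the 5 other scalings, but with normexp its sign turned (0.25), and the processed signals behind it were 5 and 6 against 12 to 23.

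Heterozygous embryos were compared with wild-type embryos on the same slide. No globin probe passed in limma, with 2 at an unadjusted p under 0.05, and neither did any of the 29910 probes tested (0% of all probes, with 627 at an unadjusted p under 0.05). Among the globins 9 of 10 differences were below 0, with a median of -0.18 against 0.004 over all probes, and without scaling between arrays Hba-a1, Hba-a2, Hbb-b2, Hbb-bs, Hbb-bt and the first Hbb-y probe turned to 0.01 to 0.14 (Hbb-b2 also to 0.01 with quantile normalization and 0.001 in the authors' values). Of the differences below 0, those of the embryonic genes Hbb-bh1 and Hba-x were the largest. Hbb-bh1 differed by -0.79 ± 0.21 (unadjusted p = 0.00811, limma adjusted p = 1.0) and Hba-x by -0.64 ± 0.24 (unadjusted p = 0.0363, adjusted p = 1.0), and these kept their sign under all scalings, from -0.84 to -0.57 and from -0.69 to -0.42. The second Hbb-y probe differed by -0.40 ± 0.18, and the first, at -0.19 ± 0.17, lay within the adult range. The 5 adult differences lay between -0.21 and -0.08. For 5 of the 10 probes the genotypes did not overlap, 3 of them embryonic, where 26.6% of all probes showed this.

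Heterozygous replicate 1 was the lower of its pair for every embryonic and adult globin probe except that of Hba-a2. Summed signals of the 25 red cell membrane genes, relative to the 75th percentile, were 109 in the lower and 144 in the higher heterozygous embryo, 137 and 139 in the wild-type pair and 162 and 187 in the homozygous pair. In RNA from whole embryos, fewer red cells and less globin RNA per red cell cannot be told apart. Without heterozygous replicate 1 the difference of Hbb-bh1 was -0.50, and without replicate 2 it was -1.08.

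Between homozygous and heterozygous embryos 2 of the 9 probes other than that of Hbb-bh2 passed, both higher, against 22.8% of all probes (9.68% higher, 13.1% lower). Of all calls 42.5% were higher in the main analysis, 76.2% with normexp and 2.7% without scaling. This comparison shares its homozygous arrays with the one against wild type, so it is no independent evidence of it. Hbb-bt was higher by 1.41 ± 0.22 (SE; limma adjusted p = 0.00802) and Hba-a2 by 0.70 ± 0.13 (adjusted p = 0.0144). Hbb-bh2 also passed (adjusted p = 0.0224), but this call supports nothing: the probe was kept through the genotypes where it is high and is not well above background on either homozygous array. Its difference is only a bound, at least 1.12-fold higher in heterozygous embryos, and its sign turned with normexp (0.34, adjusted p = 0.0403). All 4 embryonic probes were above 0, between 0.40 and 0.68, without passing, with adjusted p from 0.0536 (first Hbb-y probe) to 0.263 (Hba-x). Without scaling all 4 lay between -0.17 and 0.10. The genotypes did not overlap for 8 of 10 probes, where 63.0% of all probes showed this.

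The differences of this comparison moved when 1 embryo was left out. Without heterozygous replicate 1, Hbb-bt was at 1.20, Hba-a2 at 0.75 and Hbb-bh2 at -1.0. Their calls were not kept, and calls over the whole array fell as well. Without homozygous replicate 1, Hba-a1 was at 0.51 and Hbb-b2 at -0.55. Without homozygous replicate 2, Hba-x was at 0.73 and the Hbb-y probes were at 0.72 and 0.66. Without heterozygous replicate 2, Hba-a2 was at 0.65 and no longer called, and Hbb-bh1 was at 0.97. Calls were added for other globin probes in some of these fits, and calls over the whole array moved too. The genotype left with 1 embryo was then assumed to vary like the others, so the calls of these fits are not counted here.

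**Figure D2:**
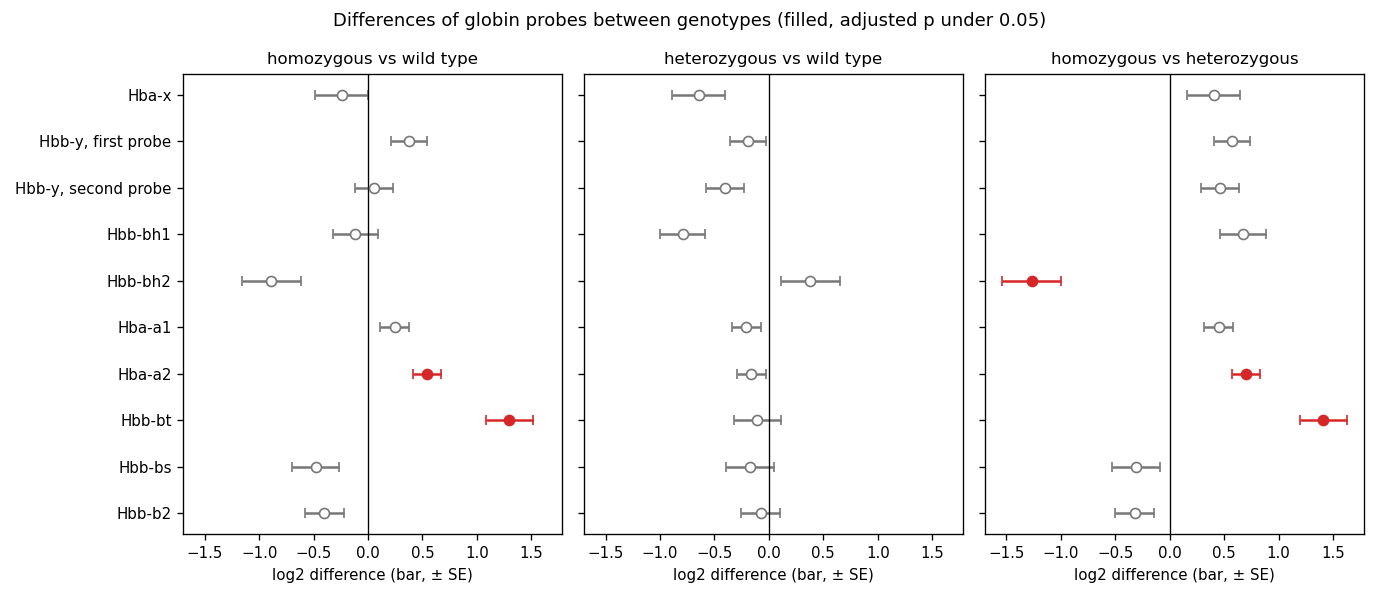
Log2 differences (horizontal axis) of the 10 globin probes in each of the 3 comparisons, with bars of 1 SE and filled points for limma adjusted p under 0.05. Hbb-bt and Hba-a2 are filled in both comparisons with homozygous embryos, Hbb-bh2 is filled in homozygous against heterozygous embryos, and no point is filled in heterozygous against wild-type embryos, where 9 of 10 lie below 0.

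The processing moved the adult genes by unequal amounts. Between the main analysis and normexp with quantile normalization, which differ in the spot signal, its background correction and the scaling, Hba-a1 went from 0.24 to -0.073, Hba-a2 from 0.54 to 0.15, Hbb-bt from 1.30 to 1.00 and Hbb-b2 from -0.40 to -0.45, while the median over all probes went from 0.08 to 0.03. Leaving the arrays unscaled moved that median to -0.28, and Hbb-bt was then at 0.94 and Hba-a2 at 0.19. Over the 5 other settings Hbb-b2 lay between -0.76 and -0.41 and Hbb-bs between -0.84 and -0.49, so these 3 beta genes kept their sign.

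**Figure D3:**
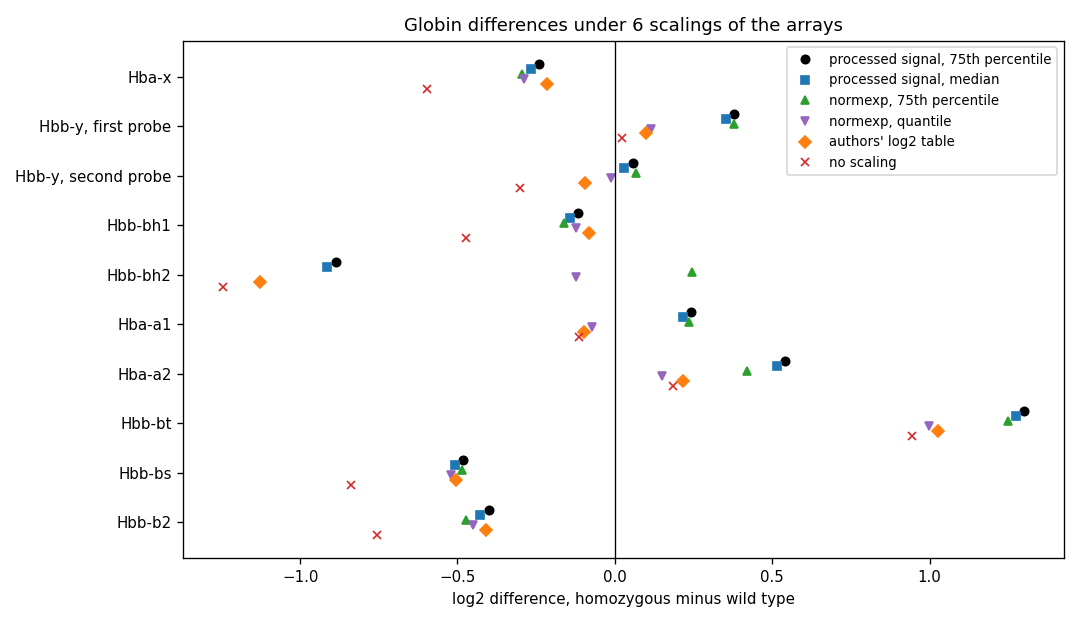
Log2 difference between homozygous and wild-type embryos (horizontal axis) for the 10 globin probes under 6 scalings of the arrays, 1 symbol each. Hbb-bt lies between 0.94 and 1.30 throughout, Hba-a1 and the second Hbb-y probe lie on both sides of 0, and Hbb-bh2 ranges from -1.24 to 0.25.

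The embryonic to adult ratio was taken within each embryo as the mean log2 value of the embryonic genes minus that of the adult genes of the same cluster. For the alpha cluster (Hba-x over Hba-a1 and Hba-a2) it was -3.11 and -3.23 in wild-type, -3.76 and -3.50 in heterozygous and -3.44 and -4.17 in homozygous embryos. All 4 embryos with the allele were below both wild-type embryos, but in the authors' values and with quantile normalization homozygous replicate 1 (-3.24 and -3.35) was above wild-type replicate 2 (-3.37 and -3.43). The homozygous difference was -0.63 ± 0.32 (SE from the spread within genotypes), the heterozygous difference -0.46 ± 0.32, and homozygous embryos differed from heterozygous embryos by -0.17 ± 0.32. The homozygous value rests on replicate 2: without it the difference from wild type was -0.27, without replicate 1 it was -1.0, and it was -0.28 in the authors' values.

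For the beta cluster (Hbb-y and Hbb-bh1 over Hbb-bt, Hbb-bs and Hbb-b2) the ratio was 0.40 and 0.45 in wild-type, 0.02 and -0.02 in heterozygous and 0.36 and 0.31 in homozygous embryos. The heterozygous embryos stood below the other 4, by -0.43 ± 0.04 from wild type, and homozygous embryos differed from wild type by -0.09 ± 0.04. The mean hides opposite movements of the homozygous embryos. With Hbb-bt alone as the adult gene, the homozygous difference from wild type was -1.25, with Hbb-bs alone 0.53 and with Hbb-b2 alone 0.45. For the heterozygous embryos every choice gave a lower ratio than in wild type, from -0.67 with Hbb-bh1 alone as the embryonic gene to -0.18 with Hbb-y alone. The ratio of Hbb-y to Hbb-bh1 was lowest in the wild-type pair, at 2.53 and 2.46, against 3.24 and 2.74 in heterozygous and 2.95 and 2.71 in homozygous embryos. This order did not hold in the authors' values or with quantile normalization, where homozygous replicate 2 (2.49 and 2.44) was below wild-type replicate 1 (2.56 and 2.45).

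Set against the mean of the 25 red cell membrane genes of the same embryo, embryonic globins were at 3.62 and 3.42 in wild-type, 3.14 and 2.92 in heterozygous and 3.30 and 3.03 in homozygous embryos. All 4 embryos with the allele were below the wild-type pair, by -0.49 ± 0.17 in heterozygous and -0.36 ± 0.17 in homozygous embryos. These ratios average all kept probes of a gene. With only the brightest probe of each gene the ratio was 2.99 and 2.753 in homozygous against 3.315 and 3.109 in wild-type embryos. By those probes the homozygous embryos had a higher denominator: the membrane mean was 1.28 and 1.16 against 0.88 and 0.86 in wild type. The embryonic globin mean was 4.27 and 3.91 against 4.20 and 3.97. With all kept probes averaged and heme and iron genes as the denominator, the homozygous difference was -0.18. Adult globins against the same membrane genes were at 4.54 and 4.36 in wild-type, 4.55 and 4.24 in heterozygous and 4.37 and 4.39 in homozygous embryos, a homozygous difference of -0.07 ± 0.15, inside the spread of the genotypes. Against red cell membrane genes, the low level of heterozygous replicate 1 was no longer apparent: it was the higher of its pair in both ratios.

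**Figure D4:**
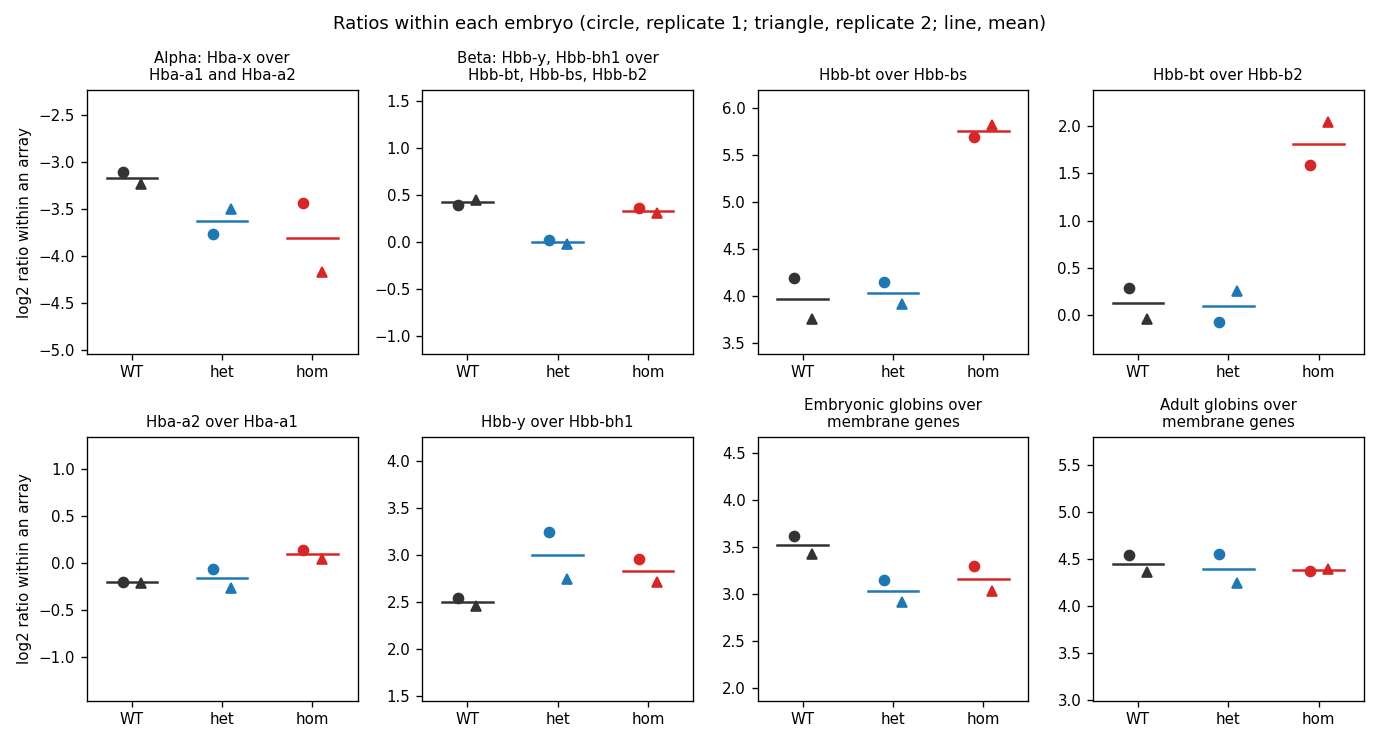
Log2 ratios within each array (vertical axis, same span in each panel) for the 2 clusters, 4 gene pairs and the globins over red cell membrane genes, with 1 symbol per embryo and a line at the mean of 2. The beta cluster ratio is near 0 in both heterozygous embryos and between 0.31 and 0.45 in the others, and the ratios with Hbb-bt over Hbb-bs or Hbb-b2 are highest in both homozygous embryos.

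The regulators of globin genes did not move as 1 group. Of 36 genes measured, 6 were higher and 1 lower in homozygous than in wild-type embryos, 19.4% of the list against 27.8% of all probes, with a median of 0.20 against 0.08. Klf1, the erythroid factor that binds CACCC boxes and drives adult beta-globin, was at 0.95 and 1.04 in wild-type, 0.52 and 1.17 in heterozygous and 0.56 and 0.05 in homozygous embryos, a difference of -0.69 ± 0.26 that did not pass (limma adjusted p = 0.0956). Bcl11a and Sox6, which silence embryonic beta-type genes, were at 0.26 ± 0.14 (adjusted p = 0.189) and 0.44 ± 0.23 (adjusted p = 0.191). Gata1, the main erythroid GATA factor, was at 0.23, Nfe2, which acts at the locus control region, at -0.08 and Myb, a factor of definitive progenitors, at 0.50; none passed, with adjusted p of 0.588, 0.804 and 0.146.

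In homozygous against wild-type embryos 7 regulators passed. Kdm1a, the LSD1 histone demethylase, rose by 0.98 ± 0.13 (limma adjusted p = 0.00415), from 2.48 and 2.57 in wild-type to 3.54 and 3.46 in homozygous embryos. Lin28a, a fetal-stage RNA-binding protein, rose by 0.98 ± 0.15 (adjusted p = 0.00646) and Mafk, the small Maf partner of Nfe2, by 1.02 ± 0.17 (adjusted p = 0.00832). Nr2f2, a nuclear receptor, rose by 0.70 ± 0.12 (adjusted p = 0.00967) and Gata2, the GATA factor of progenitors, by 0.74 ± 0.14 (adjusted p = 0.0134). Mafg, another small Maf protein, rose by 0.56 ± 0.14 (adjusted p = 0.0299), while its 2 other probes, at 0.41 and 0.23, did not pass; it lies outside the rule for named genes and completes the count. Dnmt1, the maintenance DNA methyltransferase, fell by 0.76 ± 0.13 (adjusted p = 0.00827). Outside the count, which takes 1 probe per gene, a further probe of the regulator Cbfa2t3 passed lower (-0.80, adjusted p = 0.0417). The other probes of Cbfa2t3 were at -0.012 and -0.005. Fewer genes of this list passed when either wild-type replicate was left out, as was so over the whole array.

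Among 22 measured heme and iron genes, 3 were higher and 1 lower in homozygous than in wild-type embryos. That was 18.2% of the list against 27.8% of all probes, with a median of 0.13. Slc25a37, the mitochondrial iron importer of red cells, was at 3.89 and 4.00 in wild-type, 3.60 and 4.25 in heterozygous and 5.12 and 4.91 in homozygous embryos, a rise of 1.07 ± 0.23 (limma adjusted p = 0.0189), while its other kept probe differed by 0.17. Aco1 and Ireb2, both iron regulatory proteins that bind messages of iron metabolism, moved in opposite directions: Aco1 rose by 1.08 ± 0.16 (adjusted p = 0.00651) and Ireb2 fell by 0.72 ± 0.17 (adjusted p = 0.0270). Steap3, the endosomal ferrireductase, rose by 0.51 ± 0.15 (adjusted p = 0.0449), while its other kept probe differed by 0.10. Alas2, the first enzyme of erythroid heme synthesis, was at 3.05 and 2.85 in wild-type, 2.39 and 3.04 in heterozygous and 3.19 and 3.17 in homozygous embryos, a difference of 0.23 ± 0.22 (adjusted p = 0.472). Slc25a38, a mitochondrial carrier needed for heme synthesis (0.46, adjusted p = 0.0765), and Blvrb, a biliverdin reductase (-0.31, adjusted p = 0.247), did not pass. Ahsp, the alpha-chain chaperone, had no kept probe. Leaving out either wild-type replicate left fewer calls in this list, as it did over the whole array.

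Red cell membrane and surface genes were 6 higher and 0 lower of 25 measured, 24.0% of the list against 27.8% of all probes, with a median of 0.35 that was -0.004 without scaling. Dmtn (dematin) rose by 1.29 ± 0.19 (limma adjusted p = 0.00557) from -2.27 and -2.32 in wild-type to -0.95 and -1.07 in homozygous embryos, and Ank1 (ankyrin) by 0.99 ± 0.19 (adjusted p = 0.0128). Gypc (glycophorin C) rose by 0.71 ± 0.18 (adjusted p = 0.0307) and Tmod1 (tropomodulin) by 0.66 ± 0.17 (adjusted p = 0.0347). Cd24a, a surface protein of maturing red cells and other cells, rose by 0.48 ± 0.14 (adjusted p = 0.0461). Epb41 (protein 4.1) is counted as higher by its brightest probe, at 0.64 ± 0.18 (adjusted p = 0.0404). Of its 2 other probes, that at -0.35 did not pass (adjusted p = 0.111). That at -1.24 passed in the opposite direction (adjusted p = 0.0181), so the direction of Epb41 differs between probes. Slc4a1, the band 3 anion exchanger, was at 0.33 ± 0.18 (adjusted p = 0.209). Without wild-type replicate 2 none of the 25 passed and without replicate 1 only 1 did. The same omissions left 2050 of 29886 and 2409 of 29902 probes called over the whole array.

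In the comparison with heterozygous embryos, homozygous embryos had 5 regulators higher and 1 lower, and 2 heme and iron genes higher and 1 lower. They also had 6 membrane genes higher and 0 lower. These counts take 1 probe per gene, and a further Epb41 probe passed lower here (-1.21, limma adjusted p = 0.0233). The heme and iron calls are 13.6% of their list, the membrane calls 24.0%, and the regulator calls lie between them, against 22.8% of all probes. No gene of these 3 lists passed in limma between heterozygous and wild-type embryos (0, 0 and 1 at an unadjusted p under 0.05), where medians were -0.06, -0.08 and -0.13. Of the globins of other cells, Mb (myoglobin of muscle) and Cygb (cytoglobin of fibroblasts) were measured and differed by 0.36 ± 0.14 and 0.34 ± 0.16 between homozygous and wild-type embryos (limma adjusted p = 0.104 and 0.162), and Ngb (neuroglobin) had no kept probe.

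Genes of other cells of the fetal liver and blood were also measured. Their calls below are of homozygous against wild-type embryos unless said otherwise. They stand against 27.8% of all probes that passed (13.2% higher, 14.5% lower). Fetal hepatocyte markers were 5 higher and 0 lower of 13, led by the fibrinogen chain Fgg (1.44 ± 0.25, limma adjusted p = 0.00991), and their summed signal was 198 and 201 in the wild-type pair, 175 and 220 in the heterozygous pair and 285 and 314 in the homozygous pair. Neutrophil markers were 7 higher and 0 lower of 10 measured, led by the granule protease Elane (1.26 ± 0.22, adjusted p = 0.0101), with sums of 11.4 and 12.5, 13.6 and 17.2, and 20.0 and 33.0. Blood progenitor markers were 1 higher (Kit, 0.78 ± 0.16, adjusted p = 0.0166) and 0 lower of 10, with sums of 22.6 and 23.0, 21.3 and 27.9, and 22.0 and 23.6. Megakaryocyte markers (sums of 11.4 and 12.7, 9.41 and 13.0, and 13.6 and 18.4) and endothelial markers (14.6 and 14.9, 14.8 and 15.7, and 15.0 and 16.2) had 0 calls of 10 each in limma, with 3 and 0 at an unadjusted p under 0.05. Some megakaryocyte markers were called when homozygous replicate 2 was left out. Without wild-type replicate 2 the hepatocyte, neutrophil and progenitor calls were not kept, and calls over the whole array fell as well. Members count as measured only if they passed the filter on dim probes, and Ly6g of the neutrophil list had no kept probe. Against heterozygous embryos, where 22.8% of all probes passed, 5 of 13 hepatocyte and 2 of 10 neutrophil markers were higher and 0 lower. There 1 progenitor and 1 megakaryocyte marker were higher, 0 endothelial markers passed, and macrophage markers were 0 higher and 1 lower of 11. The part of the cells of these lists in the globin differences was not tested.

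Macrophage markers were 3 higher and 1 lower of 11 measured, with summed signals of 30.0 and 30.1 in wild-type, 27.1 and 29.9 in heterozygous and 18.8 and 20.7 in homozygous embryos. Dnase2a alone carries the lower sum: without it the other 10 summed to 14.4 and 14.5, 14.6 and 16.3, and 18.9 and 17.8. Cd68 and Cd163 had no kept probe. The lower gene was Dnase2a, a lysosomal DNase that fetal liver macrophages need to digest the nuclei expelled by red cell precursors. It was at 3.97 and 3.95 in wild-type, 3.94 and 3.43 in heterozygous and 0.82 and 0.04 in homozygous embryos, that is, it fell by 3.53 ± 0.29 (limma adjusted p = 0.00108), and it passed under all 15 alternatives. Cx3cr1 and C1qa rose by 0.57 and 0.54 (adjusted p = 0.0221 and 0.0312). Outside the count, which takes 1 probe per gene, a further Cx3cr1 probe passed higher (0.63, adjusted p = 0.0449). A further Csf1r probe passed lower (-0.62, adjusted p = 0.0282).

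**Figure D5:**
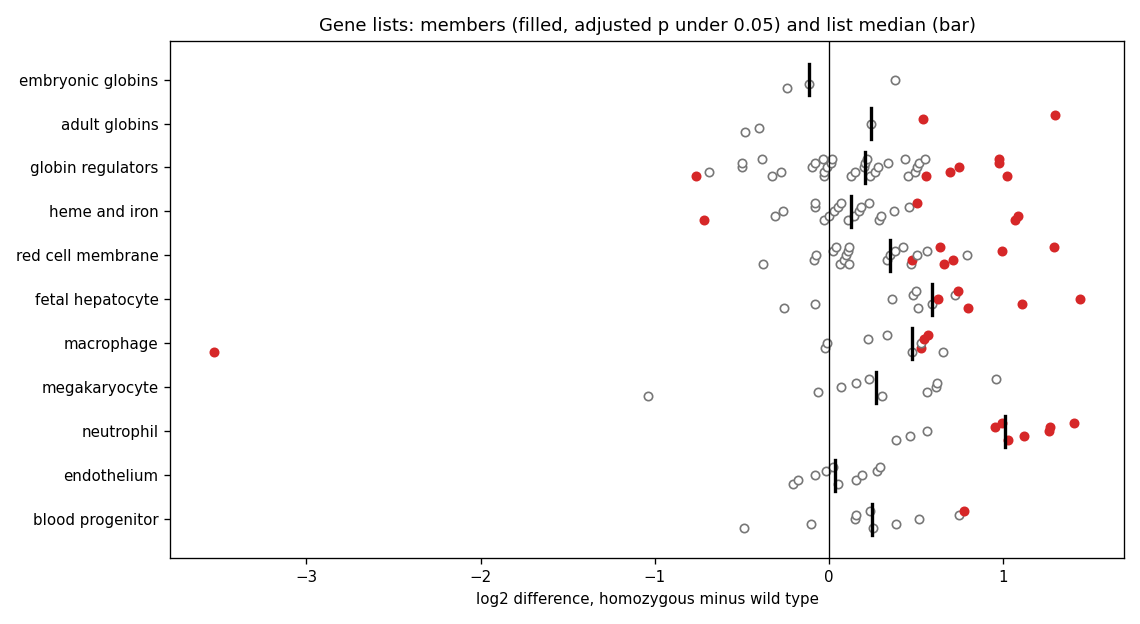
Log2 difference between homozygous and wild-type embryos (horizontal axis) for the measured genes of 11 lists, 1 point per gene, filled for limma adjusted p under 0.05, with a bar at the median of the list. Adult globins lie on both sides of 0 with Hbb-bt highest, Dnase2a stands at -3.53 among macrophage markers, and 7 of 10 neutrophil markers are filled.

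The genes whose values over the 6 arrays, centred on their mean, were nearest to the mean of the embryonic globins were Gfap, Dtx2, Otop1, Nim1k and Neurl4, with root mean square differences of 0.129 to 0.150 (log2) among 22252 named probes. Nearest to the adult mean were Tmc6, Krtap16-3, Kmt5b, Dop1b and Nubp2, at 0.032 to 0.046. With 6 arrays in 3 pairs this is a description of like values, and no member of the erythroid lists is among the 10.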

How the data were processed

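Total RNA of 6 embryos was measured on 1-colour arrays. Per the file headers and the submitters' processing notes, the deposited scanner files hold intensity values from Agilent Feature Extraction 11.0.1.1, background-subtracted within each array and not normalized between arrays. A series table of log2 values was also deposited by the authors; its normalization is not given in the sources used here. Each array had 43020 gene spots. Outlier-flagged spots were left out and spots of 1 probe averaged. The log2 processed signal was taken relative to the 75th percentile of the array, and a probe was kept if both arrays of 1 or more genotypes had it well above background.

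Accessions were matched to symbols through the RefSeq gene table (GRCm38.p6, names and order only), which named 27234 probes (69.1%). The array's annotation is of another build, so no gene coordinates are given, and promoter coordinates are those of the RefSeq table.

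All 6 arrays were fitted in 1 linear model with limma 3.58.1 (R 4.3.3, moderated tests with 3 residual and 3.36 prior degrees of freedom, Benjamini-Hochberg over all kept probes, threshold 0.05). Genotype ratios carry no test. A gene of a list is its kept probe with the highest mean. The fit was tested on simulated data with 2 arrays per genotype. It recovered 8% of probes changed 2-fold and 74% of those changed 4-fold in homozygous against wild type. The simulation changed a far smaller share of probes than the 27.8% that passed in the data. Adjusted p-values depend on that share, so these percentages do not measure the sensitivity of the tests reported here. A difference that did not pass is not shown to be absent.

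Genes named were all globin probes, in the regulator, heme and iron, membrane and other-globin lists up to 6 members with the smallest p in homozygous against wild type plus Klf1, Gata1, Bcl11a, Sox6, Myb, Nfe2, Alas2, Ahsp, Slc4a1 and Stat3, in other lists up to 3 members, and the 5 nearest profiles for each globin class. The values of 1 further gene named by this rule are not reported here. The members and lists were chosen with earlier results of these data known. Alternatives were another background correction (normexp with an offset of 50 on median signals, in place of the mean signals planned), quantile or median scaling, no scaling, the authors' values, 2 other filters, the brightest probe per gene, the replicate number as a block and leaving out each array. Whether replicate numbers in the titles pair embryos is not known. Differences between replicates 1 and 2 correlated between genotypes at -0.002, -0.159 and 0.286, which does not settle it.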

Additional observations from a re-analysis of the deposited data

How the results depend on the processing

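Counts of globin probes called in homozygous against wild-type embryos were 2 in the main analysis, 1 with no filter, 4 without scaling between arrays and 0 to 3 when 1 embryo was left out. Against heterozygous embryos they were 3 in the main analysis (1 of them Hbb-bh2), 7 with normexp, 1 with normexp and quantile normalization, and 0 to 6 when 1 embryo was left out. Calls over the whole array moved as well. Against wild type they were 8304 of 29911 probes in the main analysis and 9836 (1076 higher, 8760 lower) without scaling. Those against heterozygous embryos were 6813 in the main analysis and 13947 (10634 higher, 3313 lower) with normexp. The 4 globin calls without scaling were Hbb-bt higher and Hbb-b2, Hbb-bs and Hbb-bh2 lower. The 7 with normexp were all higher, and Hbb-bh2 among them was lower in the main analysis. None of the 15 alternatives gave a globin call in heterozygous against wild-type embryos. With the replicate block the counts stayed at 2, 0 and 3 of the 10 probes, and the block changed no globin call; the numbers do not establish a pairing. A slide block could not be fitted, since the homozygous arrays fill a slide of their own. A genotype left with 1 embryo was assumed to vary like the others. The cause was not tested for any change listed here.

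The alpha ratio of homozygous against wild-type embryos was -0.28 in the authors' values and -1.0 to -0.27 when 1 embryo was left out, and against heterozygous embryos it was 0.22 with quantile normalization, 0.26 in the authors' values and -0.54 to 0.20 when 1 embryo was left out. The beta ratio of homozygous against wild-type embryos was -0.045 with quantile normalization and -0.008 with the brightest probe. With single genes chosen after seeing the data it was -1.25 (Hbb-bt), 0.53 (Hbb-bs), 0.45 (Hbb-b2), 0.079 (Hbb-y) and -0.26 (Hbb-bh1). The heterozygous beta ratio was -0.37 with the brightest probe, and with single genes -0.37 (Hbb-bs), -0.47 (Hbb-b2), -0.18 (Hbb-y) and -0.67 (Hbb-bh1). Homozygous against heterozygous beta ratios with single genes were -0.81 (Hbb-bt), 0.91 (Hbb-bs), 0.92 (Hbb-b2), 0.26 (Hbb-y) and 0.42 (Hbb-bh1). Against heme and iron genes in place of membrane genes, embryonic globins were at -0.18 (from wild type) and 0.31 (from heterozygous) in homozygous embryos and adult globins at 0.11 and 0.16. Adult globins over membrane genes in homozygous embryos were at -0.25 and -0.29 with quantile normalization and -0.26 and -0.29 in the authors' values, and leaving out 1 embryo gave -0.21 to 0.10 for heterozygous against wild type and -0.17 to 0.14 for homozygous against heterozygous.

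Signs turned as follows, none of them past the threshold except the last. Homozygous against wild type, Hba-a1 was at -0.073 (quantile), -0.10 (authors) and -0.11 (no scaling). The second Hbb-y probe was at -0.011, -0.094 and -0.30 under the same 3 and at -0.15 to 0.26 when 1 embryo was left out. Hba-x was at -0.57 to 0.086 when 1 embryo was left out, and Hbb-bh2 at 0.25 with normexp. Heterozygous against wild type, no scaling gave 0.014 for Hba-a1, 0.06 for Hba-a2, 0.14 for Hbb-b2, 0.049 for Hbb-bs, 0.11 for Hbb-bt and 0.03 for the first Hbb-y probe. Hbb-b2 was also at 0.01 (quantile) and 0.001 (authors), and Hbb-bh2 at -0.10 with normexp. Leaving out 1 embryo gave -0.16 to 0.01 for Hbb-b2, -0.49 to 0.15 for Hbb-bs and -0.36 to 0.14 for Hbb-bt. Homozygous against heterozygous, Hba-a1 was at -0.032 (quantile) and -0.13 (no scaling), Hba-x at -0.17, the first Hbb-y probe at -0.007 and the second at -0.12 without scaling, Hbb-bs at -0.63 to 0.01 when 1 embryo was left out, and Hbb-bh2 at 0.34 with normexp (adjusted p = 0.0403).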
